A study of Mus musculus with 18 samples.

Results

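The 18 liver arrays of the series were divided into 9 with a high and 9 with a low acute phase score. Each array was scored by the mean log2 intensity of Saa1, Saa2, Orm2 and Lcn2, and the 3 highest and 3 lowest arrays of each diet formed the sides. The sides were therefore chosen by values measured on the same arrays, and neither was given a treatment that the other lacked. The livers came from male C57BL/6J mice, a strain that 1 label field spells C56BL/6J, which were 5 weeks old at the start and were fed for 20 weeks. The 3 diets were AIN93G control diet, AIN93G with 0.05% quercetin and AIN93G with 1% quercetin, with 6 arrayed mice each, 1 mouse per array. Quercetin is a plant flavonol. Both sides held 3 mice of each diet, so the comparison of high with low livers was balanced by diet, and diet was a block in every model unless stated. The mice were housed 3 per cage, and the cage of each mouse is not in the labels. Nothing in the labels describes an infection, an injury or an injection.

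The acute phase response is the rapid change in the proteins that hepatocytes secrete when inflammatory cytokines reach the liver. Interleukin 6 and its relatives act through the receptor subunit gp130 and the transcription factor STAT3, while interleukin 1 and tumour necrosis factor act through NF-kB and the C/EBP factors. Serum amyloid A proteins, orosomucoids and lipocalin 2 are among the transcripts that rise furthest in mouse liver during such a response.

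Values are log2 of the deposited intensity plus 16 after the array medians were equalised, and a difference is high minus low on that scale, with its standard error. The score ran from 7.38 to 13.10. In the control diet the high livers scored 13.10 (replicate 4), 13.01 (replicate 5) and 10.92 (replicate 6), against 9.55, 8.93 and 8.21 in the low livers. At 0.05% quercetin the high livers scored 12.99 (replicate 2), 12.65 (replicate 3) and 8.91 (replicate 1), against 7.83, 7.53 and 7.38 in the low livers. At 1% quercetin the high livers scored 12.80 (replicate 6), 12.77 (replicate 5) and 9.85 (replicate 1), against 9.75, 9.70 and 9.40 in the low livers. The widest gap between neighbouring scores, 1.72, lay between 12.65 and 10.92, and 6 livers, 2 of each diet, lay above it. The third-ranked liver of each diet was thus closer to the low livers of its diet, and the values just inside and just outside the threshold were 9.85 and 9.75 at 1% quercetin. The 0.05% replicate 1 liver, on the high side of its diet, scored below all 3 low livers of the 1% diet and below 2 of the low control livers. The labels give the replicate numbers no meaning, yet the top pair of each diet carried neighbouring numbers.

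**Figure D1:**
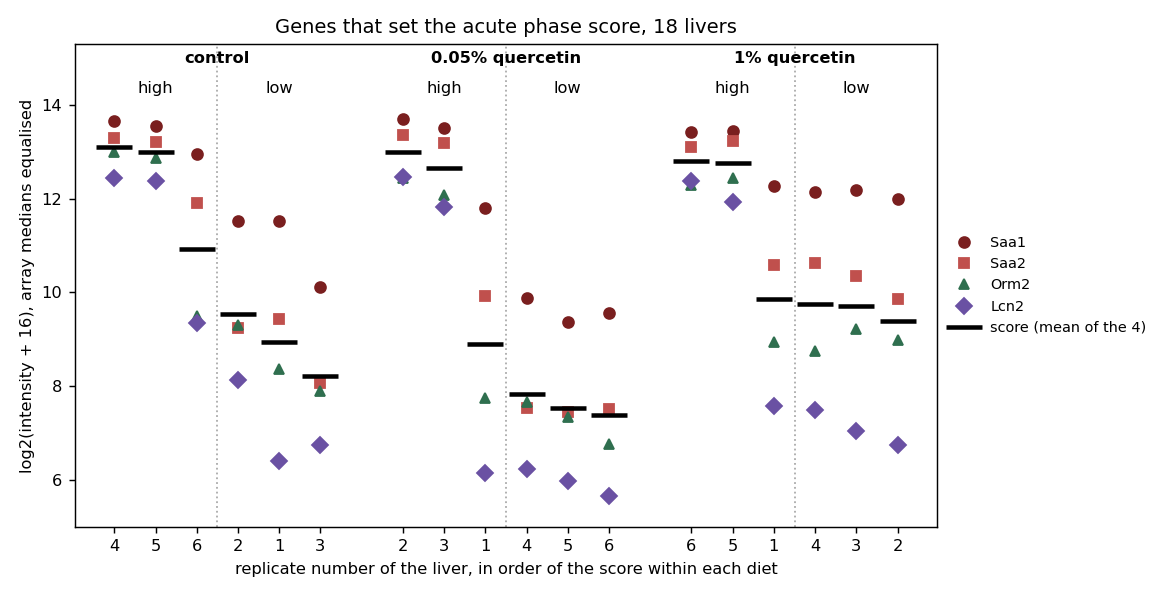
Acute phase score of each of the 18 livers by diet, with the score (mean log2 intensity of Saa1, Saa2, Orm2 and Lcn2) on the y axis and the high and low livers marked. In each diet 2 livers lie at 12.65 or above, and the third high liver lies lower, at 10.92, 8.91 and 9.85 in the control, 0.05% and 1% diets.

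The 4 score genes are given without a test, because they made the split. Lcn2, which binds the siderophores that bacteria use to take up iron, ranged from 6.16 through a median of 11.94 to 12.46 in the high livers, against 5.66, 6.75 and 8.13 in the low livers. Saa2, an apolipoprotein of high-density lipoprotein in inflammation, had a lowest, median and highest value of 9.92, 13.18 and 13.37 in the high livers, against 7.44, 9.25 and 10.63 in the low livers. Orm2, an orosomucoid that carries drugs and lipids in plasma, had 7.76, 12.30 and 13.01 in the high livers, against 6.77, 8.38 and 9.30 in the low livers. Saa1 had 11.80, 13.44 and 13.70 in the high livers, against 9.36, 11.51 and 12.19 in the low livers. All 4 overlapped between the sides. The 0.05% replicate 1 liver had the lowest high value of each, and high 1% replicate 1, at 10.59 for Saa2, 8.94 for Orm2 and 7.59 for Lcn2, also lay below the highest low value of those 3 genes. The mean differences were 4.01 for Lcn2, 3.52 for Saa2, 3.00 for Orm2 and 2.23 for Saa1, and the other Saa1 probe set differed by 2.49. Saa1 and Saa2 are near-identical in sequence, so their probe sets may share signal.

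Promoters are shown for 2 score genes and for the metallothioneins and Socs3, described below, because these transcripts stood among those furthest apart between the sides. Each window is the 250 bases before the RefSeq gene start in GRCm38.p6, read 5′ to 3′ on the gene's strand, with matches to a motif in capitals. For Saa2 (chr7:46751583-46751832, + strand) and Orm2 (chr4:63362199-63362448, + strand) the capitals mark TTNNGNAA, a C/EBP-type motif, on either strand.
Saa2: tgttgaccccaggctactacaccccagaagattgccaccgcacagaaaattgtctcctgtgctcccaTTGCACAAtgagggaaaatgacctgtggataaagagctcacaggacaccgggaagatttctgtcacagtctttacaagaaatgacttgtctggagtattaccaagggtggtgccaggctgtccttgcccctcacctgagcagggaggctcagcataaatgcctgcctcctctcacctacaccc
Orm2: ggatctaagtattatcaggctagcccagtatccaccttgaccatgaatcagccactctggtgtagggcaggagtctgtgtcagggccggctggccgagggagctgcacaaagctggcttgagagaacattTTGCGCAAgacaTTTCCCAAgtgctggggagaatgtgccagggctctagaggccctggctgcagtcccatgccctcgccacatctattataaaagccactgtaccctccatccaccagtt
For Mt1 (chr8:94178839-94179088, + strand) and Mt2 (chr8:94172368-94172617, + strand) the capitals mark TGCACNC or TGCGCNC, the core of the metal response element, on either strand.
Mt1: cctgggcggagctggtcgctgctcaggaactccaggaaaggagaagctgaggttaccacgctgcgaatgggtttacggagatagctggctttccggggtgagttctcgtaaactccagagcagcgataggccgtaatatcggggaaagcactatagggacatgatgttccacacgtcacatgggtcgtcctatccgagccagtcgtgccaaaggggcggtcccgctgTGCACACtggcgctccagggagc
Mt2: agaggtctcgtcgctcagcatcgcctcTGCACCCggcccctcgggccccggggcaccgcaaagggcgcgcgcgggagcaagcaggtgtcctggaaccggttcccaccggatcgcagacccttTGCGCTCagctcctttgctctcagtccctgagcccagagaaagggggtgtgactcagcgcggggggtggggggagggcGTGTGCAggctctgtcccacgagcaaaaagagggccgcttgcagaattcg
For Socs3 (chr11:117969367-117969616, - strand) the capitals mark TTCNNNGAA, a STAT-type motif, which reads as a palindrome on both strands.
Socs3: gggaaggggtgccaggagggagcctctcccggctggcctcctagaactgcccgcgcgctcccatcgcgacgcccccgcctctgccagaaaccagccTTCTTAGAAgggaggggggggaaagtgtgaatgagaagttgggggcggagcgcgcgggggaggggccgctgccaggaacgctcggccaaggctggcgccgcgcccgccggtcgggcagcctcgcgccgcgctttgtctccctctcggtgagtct
The C/EBP-type motif had 1 match in the Saa2 window and 2 in the Orm2 window, and 36.8% of all 32851 promoter windows of that length held at least 1. The metal response element had 1 match for Mt1 and 3 for Mt2, against 21.4% of windows with at least 1. The STAT-type motif had 1 match for Socs3, and 7.02% of windows held it. A match describes letters in the window and does not show that a factor bound there.

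Across 12881 genes other than the 4 of the score, 856 (6.65%) differed between high and low livers at an adjusted p under 0.05 in limma with Benjamini-Hochberg adjustment. Of these, 407 (3.16%) were higher and 449 (3.49%) lower in the high livers. These p-values measure association with a split that 4 co-measured genes made, not the effect of a treatment. Among the called genes, 36 were higher by more than 1 and 20 lower by more than 1 on the log2 scale. The median difference over all tested genes was 0.003, and 50.8% of them were higher. Array medians were equalised over these same genes, which largely sets both values, so nothing is read from them. The balance of directions also depended on that step. Without equalised medians 96 genes were called higher and 551 lower. With medians equalised over all probe sets, where 1% replicates 1 and 4 changed sides, 275 were called higher and 106 lower. Of the 856, 848 had the same sign in all 3 diets, against 4835 of the 12881 tested genes. The 856 were chosen by their difference over these same diets, so nothing is read from that agreement. The count depended on single livers. Among control livers, leaving out replicate 3 gave 489 called genes, replicate 4 gave 484 and replicate 5 gave 557. Among livers at 0.05% quercetin, leaving out replicate 2 gave 382, replicate 3 gave 459, replicate 4 gave 493 and replicate 5 gave 513. At 1% quercetin, leaving out replicate 2 gave 519. Setting the 2 highest against the 2 lowest livers of each diet gave 1234 called genes, of which 621 were among the 856.

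2 measures moved with the split and are set beside that count. The log2 ratio of 3′ to 5′ signal of the Gapdh control probe sets, which rises as RNA is shortened at its 5′ end, averaged -0.07 ± 0.08 in the high livers and -0.22 ± 0.08 in the low livers (SD, n = 9 each). That difference of 0.14 had an exact permutation p of 0.003 within diets, two-sided, and 0.012 after adjustment over 4 array measures, and it was present without any single liver (0.130 to 0.166). The same ratio for beta-actin differed by -0.03, with an adjusted exact permutation p of 0.608 (n = 9 each). With the Gapdh ratio as a covariate, an alternative added after the data were seen, limma called 0 genes, 1190 had an unadjusted p under 0.05, and all 856 kept their sign at a median of 0.753 times the difference. Neutrophil transcripts were the second measure. With the mean of the 10 tested neutrophil markers as a covariate, limma also called 0 genes, 1332 had an unadjusted p under 0.05, and 854 of the 856 kept their sign at a median of 0.779 times the difference. Both measures differed between the sides, so each covariate also widens the standard error of the difference. Prtn3 and Mmp8, both neutrophil markers, passed the filter on dim genes through their high livers, as described below. That covariate thus partly follows the split. The 0 calls therefore do not show the part of either measure in the result, which was not tested beyond these fits.

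Only 8 genes had value ranges that did not touch between the sides, 3 with the high livers above (0.0233% of those tested) and 5 with the high livers below (0.0388%). They were named after their values were seen. Above were Cad, which begins pyrimidine synthesis (difference 0.62 ± 0.08, limma adjusted p = 0.00134), Pfn2, an actin-binding profilin (0.48 ± 0.08), and Cdc123 (0.12 ± 0.05), whose adjusted p was 0.14. Below were Rgs16, Mlxipl, Tlcd1 (-0.50 ± 0.08), Mospd2 (-0.40 ± 0.08) and 1110020A21Rik (-0.62 ± 0.12), the first 2 of which are described with their groups.

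The transcripts that rose furthest outside the score were the metallothioneins, small proteins that bind zinc and copper. Mt1 had a lowest, median and highest value of 7.18, 13.26 and 13.67 in the high livers, against 7.02, 7.71 and 12.28 in the low livers. Mt2 had 6.27, 12.39 and 13.21 in the high livers, against 5.64, 6.62 and 11.65 in the low livers. In both, 8 of 9 high livers stood together near the top of the scale, the 0.05% replicate 1 liver lay among the low livers, and low 1% replicate 3 reached the highest low value. The differences were 4.38 ± 0.72 for Mt2 (adjusted p = 0.00323) and 4.21 ± 0.69 for Mt1 (adjusted p = 0.00316), about 20.9-fold and 18.5-fold on the intensity plus 16 scale. The other Mt1 probe set differed by 1.09. By diet the Mt1 difference was 5.41 in controls, 3.96 at 0.05% and 3.25 at 1% quercetin.

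Acute phase proteins outside the score moved with it, as 24 of the 25 tested members were higher in the high livers with a median difference of 0.72, and 18 passed, all higher, beside 3.16% of all tested genes. These genes belong to the same programme as the score, so nothing is read from that count, which was 11 on values without equalised medians. Saa3, a serum amyloid that macrophages also make, had a lowest, median and highest value of 7.04, 10.84 and 12.53 in the high livers, against 6.78, 7.02 and 8.33 in the low livers. Its difference was 2.90 ± 0.65 (adjusted p = 0.0159), and the 6 livers above the gap in the score, from 10.55 to 12.53, were the only ones above 8.33. The third-ranked high livers had Saa3 values of 8.06 in the control diet, 7.33 at 0.05% and 7.04 at 1%, while their Mt1 values were 12.86, 7.18 and 13.67. The third-ranked livers of the control and 1% diets thus had Mt1 near the level of the top pair and Saa3 near the low livers. With the 2 highest set against the 2 lowest livers of each diet, the Saa3 difference was 4.36 and the Mt1 difference 4.89.

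Further secreted members rose by smaller amounts. Serpina3n, a serine protease inhibitor, rose by 1.42 ± 0.24 (adjusted p = 0.00419) and by nearly the same amount in each diet, 1.43 in controls, 1.42 at 0.05% and 1.43 at 1%. Fgl1, a fibrinogen-like hepatokine, rose by 1.09 ± 0.19, and Apcs, serum amyloid P, by 1.05 ± 0.20. Lbp and Cd14, which present bacterial lipopolysaccharide to its receptor, rose by 0.97 ± 0.21 and 0.93 ± 0.16. Fga and Fgb, 2 of the fibrinogen chains, lay near the top of the intensity scale and rose by 0.34 ± 0.07 and 0.24 ± 0.07, the second of which was lost in 14 of 18 fits without 1 liver. Steap4, a metalloreductase, had values of 9.08, 12.16 and 12.65 in the high livers, against 9.34, 9.85 and 11.46 in the low livers, and rose by 1.68 ± 0.36 (adjusted p = 0.0121). Orm3 rose by 1.62 ± 0.44 (adjusted p = 0.0382), although this call was lost in 14 of 18 fits that left out 1 liver, with an adjusted p of up to 0.0818. The 7 members that did not pass were Cp, Hamp, Hamp2, Hp, Crp, Hpx and Fgg. Among them Hamp2, a hepcidin paralogue, was the single member with a lower value, at -0.61 ± 0.23 (adjusted p = 0.119), and haptoglobin (Hp) had 0.23 ± 0.09 (adjusted p = 0.124). Iron handling otherwise had 1 of 20 members called, beside 6.65% of all tested genes, Slc39a14, the zinc and iron importer of hepatocytes, which rose by 0.76 ± 0.14 (adjusted p = 0.00657).

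Transcripts of proteins whose plasma level falls in inflammation had 1 called member of 15, beside 6.65% of all tested genes. This was Fetub, a fetuin, which rose by 0.52 ± 0.11 (adjusted p = 0.0121). Of the 15, 11 were higher and 4 lower, with a median difference of 0.09. That direction was not stable: in the control diet 4 were higher and 11 lower, with a median of -0.07, and on values without equalised medians 3 were higher and 12 lower, with a median of -0.03. Albumin (Alb) had 13.48 ± 0.15 in the high livers and 13.32 ± 0.18 in the low livers (SD, n = 9 each), and its difference of 0.16 ± 0.08 had an adjusted p of 0.269 in limma. Serpina6, the corticosteroid-binding globulin, had -0.46 ± 0.14 (adjusted p = 0.0556), and was called lower in 5 of 18 fits without 1 liver.

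The receptors and effectors of interleukin 6 signalling included 7 called genes of 23, all higher (3.16% of all tested genes were called higher), and the median member differed by 0.33. At the receptor level Osmr, the oncostatin M receptor that pairs with gp130, had a lowest, median and highest value of 5.86, 7.43 and 7.85 in the high livers, against 5.38, 6.08 and 6.99 in the low livers. It rose by 1.17 ± 0.18 (adjusted p = 0.00233). Il6st, which encodes gp130 itself, and the receptor Il6ra had 0.33 ± 0.10 (adjusted p = 0.0648) and 0.58 ± 0.25 (adjusted p = 0.171). Stat3 rose by 0.69 ± 0.17 (adjusted p = 0.0258), with differences of 1.30 in controls, 0.78 at 0.05% and -0.015 at 1% quercetin, and the call was lost in 6 of 18 fits without 1 liver. Its other probe sets differed by 0.66, 0.21 and 0.06.

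Socs3, the inhibitor that STAT3 induces against its own receptor, had values of 7.53, 10.21 and 10.57 in the high livers, against 6.40, 8.46 and 9.19 in the low livers. It rose by 1.68 ± 0.36 (adjusted p = 0.0129), and its other probe sets differed by 1.25 and 1.06. All high livers but 0.05% replicate 1 lay above the highest low value. Cebpd and Cebpb, the C/EBP factors induced in the acute phase, rose by 0.66 ± 0.14 and 0.49 ± 0.12, and Bcl3, a nuclear IkB protein, by 0.65 ± 0.16. Pim3, a kinase, rose by 0.71 ± 0.20 (adjusted p = 0.0444). Leaving out 1 liver ended the Cebpb call in 4 of 18 fits and the Pim3 call in 13, and the count of called list members was 4 without control replicate 4, 0.05% replicate 3 or 0.05% replicate 4, and 3 on values without equalised medians. Cish and Socs2, inhibitors of growth hormone signalling in the same list, had differences of 0.21 ± 0.39 (adjusted p = 0.8) and 0.69 ± 0.61 (adjusted p = 0.55).

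NF-kB and interleukin 1 signalling had 6 of 26 members called, all higher, beside 3.16% of all tested genes, with a median of 0.17. Il1r1, the interleukin 1 receptor, rose by 1.45 ± 0.26 (adjusted p = 0.00538). Irak3, an inhibitor of that receptor's kinases, rose by 1.34 ± 0.27 (adjusted p = 0.00825), and its values were 4.36, 6.06 and 6.85 in the high livers, against 3.99, 4.59 and 4.89 in the low livers. The low mean of Irak3, 4.51, was below the filter on dim genes at 4.69, which it passed through its high livers, with a mean of 5.85. Nfkbib, an inhibitor of NF-kB, rose by 0.55 ± 0.08 (adjusted p = 0.00165), and Icam1, an adhesion molecule that leukocytes bind, by 0.71 ± 0.13 (adjusted p = 0.00619). The other called members, named after their values were seen, were Tlr2 (1.13) and Tnfrsf1a (0.55). Of the cytokines and chemokines themselves, 18 of 24 measured members passed the filter on dim genes and 1 was called (6.65% of all genes were called either way), Ccl6, which rose by 0.90 ± 0.20 (adjusted p = 0.0164). Cxcl1, a neutrophil attractant, had 10.88 ± 1.19 in the high livers and 9.16 ± 1.62 in the low livers (SD, n = 9 each), a difference of 1.72 ± 0.59 with a limma adjusted p of 0.087. Tifa, an adaptor of TRAF6 signalling, rose by 1.55 ± 0.44 (adjusted p = 0.0421), a call lost in 15 of 18 fits without 1 liver.

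**Figure D2:**
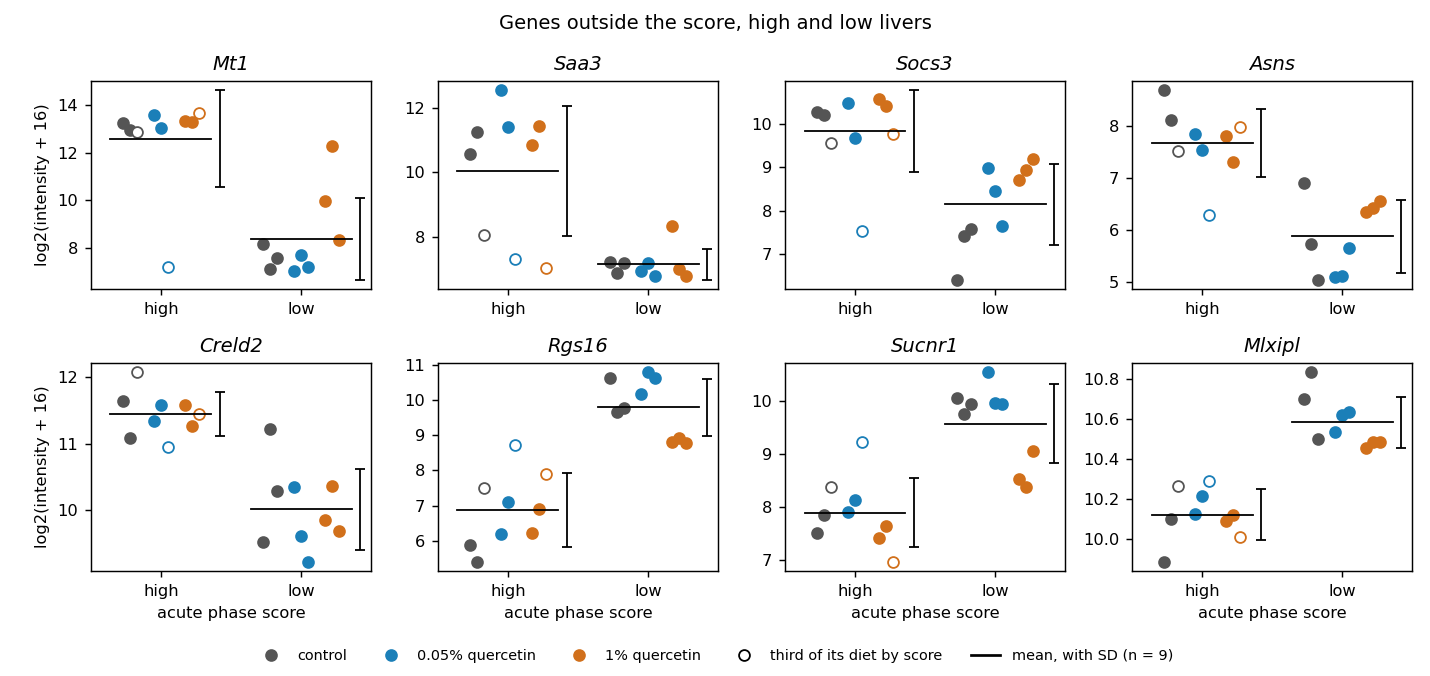
Log2 intensity of Mt1, Saa3, Socs3, Asns, Creld2, Rgs16, Sucnr1 and Mlxipl in each of the 18 livers, high livers left of low livers, with bars at the mean and SD (n = 9 each). Open symbols mark the third-ranked liver of each diet, and the Rgs16 and Mlxipl ranges of the high livers lie below those of the low livers.

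The unfolded protein response list holds chaperones of the endoplasmic reticulum, where secreted proteins fold, and stress regulators. Of 29 tested members, 13 were called, all higher, beside 3.16% of all tested genes, and 16 did not pass. The median difference was 0.33, with 25 members higher and 4 lower. Creld2, a disulphide isomerase of that compartment, had a lowest, median and highest value of 10.95, 11.45 and 12.08 in the high livers, against 9.22, 9.84 and 11.23 in the low livers. It rose by 1.43 ± 0.20 (adjusted p = 0.00141), by 1.26 in controls, 1.57 at 0.05% and 1.47 at 1%. Sdf2l1, a chaperone cofactor, rose by 1.00 ± 0.19, Syvn1, the ubiquitin ligase that clears misfolded proteins, by 0.91 ± 0.18, and Hyou1, a chaperone of the HSP70 family, by 0.61 ± 0.10. The master chaperone Hspa5, named after its values were seen, rose by 0.49 ± 0.10 (adjusted p = 0.00966). For Creld2, all 9 high livers lay above the low mean of 10.01, including 0.05% replicate 1, which had the lowest high value. All 9 also lay above the low mean for genes that were not called, such as Fgg and Hpx, so this does not set Creld2 apart. The stress transcription factors Atf4 and Ddit3, also named after their values were seen, had differences of -0.07 ± 0.10 (adjusted p = 0.748) and -0.28 ± 0.24 (adjusted p = 0.54), and Trib3 had -0.52 ± 0.18 (adjusted p = 0.093). The number of called members ranged from 9 to 15 when 1 liver was left out, and was 5 higher and 1 lower when the 2 highest were set against the 2 lowest livers of each diet. It was 2 higher and 1 lower when the 6 livers above the gap were set against the other 12, 4 with medians equalised over all probe sets and 7 without equalised medians. Equalising over all probe sets also made 1% replicates 1 and 4 change sides.

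Asns, asparagine synthetase, rose by 1.80 ± 0.25 (adjusted p = 0.00141). Its lowest, median and highest values were 6.30, 7.81 and 8.69 in the high livers, against 5.04, 5.73 and 6.92 in the low livers. Its other probe set differed by 1.99. Cytosolic heat shock chaperones had 4 of 17 members called, all higher, beside 3.16% of all tested genes, and Hspb1, a small heat shock protein, rose by 1.05 ± 0.18 (adjusted p = 0.00492). The Hspb1 difference was 0.68 in controls, 1.66 at 0.05% and 0.82 at 1%. The median of the heat shock list was -0.10 in the control diet, 0.71 at 0.05% and 0.21 at 1% quercetin. On values without equalised medians 1 member was called, and between the 2 highest and 2 lowest livers of each diet 2 were.

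Other large rises were in genes of varied roles. Moxd1, a relative of dopamine beta-hydroxylase that is more abundant in male than in female mouse liver, had values of 4.35, 10.14 and 11.51 in the high livers, against 3.83, 4.09 and 8.84 in the low livers. It rose by 3.88 ± 0.80 (adjusted p = 0.00979), and the third-ranked livers of the 0.05% and 1% diets, at 4.39 and 4.35, lay among the low livers. Scara5, a ferritin receptor, rose by 2.07 ± 0.59 (adjusted p = 0.0444), and Tff3, a secreted trefoil peptide, by 2.04 ± 0.54 (adjusted p = 0.0314). The other Scara5 probe set differed by only 0.50. Leaving out 1 liver ended the Scara5 call in 13 of 18 fits and the Tff3 call in 8.

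Of 28 tested genes of fatty acid and triglyceride synthesis, 9 were called, all lower in the high livers, beside 3.49% of all tested genes, and 19 did not pass. Over the 28, 27 had a lower mean in the high livers, with a median difference of -0.45. Mlxipl, which encodes the glucose-responsive transcription factor ChREBP, had a lowest, median and highest value of 9.88, 10.12 and 10.29 in the high livers, against 10.45, 10.53 and 10.83 in the low livers. It fell by 0.46 ± 0.07 (adjusted p = 0.00141), and no high liver reached the lowest low liver. Acss2, which makes acetyl-CoA from acetate, fell by 1.01 ± 0.15 (adjusted p = 0.00198), Gpam, which starts triglyceride assembly, by 0.88 ± 0.18 (adjusted p = 0.00875), and Pnpla3, a lipid droplet hydrolase, by 0.65 ± 0.12 (adjusted p = 0.00538). Fasn and Acly, named after their values were seen, make fatty acids and their acetyl-CoA precursor, and fell by 1.04 ± 0.30 and 0.79 ± 0.18.

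The list median for lipid synthesis was -0.60 in controls, -0.62 at 0.05% and -0.04 at 1% quercetin, where 13 members were higher and 15 lower. Gpam differed by -1.40, -1.21 and -0.03 in that order, and Acss2 by -0.89, -1.45 and -0.67. Leaving out 1 liver gave 5 to 13 called members, with 5 in each case without control replicate 3 or 4 or without 0.05% replicate 2, 3 or 4. Medians equalised over all probe sets, which also made 1% replicates 1 and 4 change sides, gave 2. Whether the list itself differed between diets was not tested. In the limma test of each gene between diets, Gpam had an adjusted p of 0.0653. With the Gapdh ratio as a covariate the list median was -0.13, and with the neutrophil markers it was -0.26. The cholesterol synthesis list had 1 called gene of 20, beside 6.65% of all tested genes, with 18 lower and a median of -0.27. The called gene was Sc5d, a sterol desaturase, which fell by 0.58 ± 0.10 (adjusted p = 0.00414), while its other probe sets differed by -0.69 and 0.05. Leaving out 1 liver gave 1 to 5 called members. The cholesterol list median was -0.45 in controls and -0.71 at 0.05% but 0.27 at 1%, and with the Gapdh ratio as a covariate it was 0.06.

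Angptl8, a hepatokine induced by feeding that restrains lipoprotein lipase, fell by 1.30 ± 0.30 (adjusted p = 0.0173). Its values were 7.50, 8.34 and 10.38 in the high livers, against 9.28, 9.75 and 10.98 in the low livers, and control replicate 6 supplied the highest high value.

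Rgs16, which accelerates the GTPase of G protein alpha subunits, fell furthest of all called genes. Its lowest, median and highest values were 5.42, 6.90 and 8.73 in the high livers, against 8.79, 9.76 and 10.78 in the low livers. It fell by 2.92 ± 0.37 (adjusted p = 0.000833), and its other probe sets differed by -3.15 and -1.88. By diet the difference was -3.75 in controls, -3.18 at 0.05% and -1.84 at 1%. The highest high value was that of 0.05% replicate 1, the liver with the lowest score on its side.

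Sucnr1, the receptor for succinate, had the smallest p of the 24 largest changes (adjusted p = 0.000402). It had values of 6.96, 7.84 and 9.23 in the high livers, against 8.38, 9.95 and 10.55 in the low livers, and fell by 1.69 ± 0.18. Egr1, an immediate early transcription factor, fell by 1.88 ± 0.41 (adjusted p = 0.0134), but its difference between the 2 highest and 2 lowest livers of each diet was -1.52 with an adjusted p of 0.073. Ccn1, a matrix protein induced by the same stimuli, fell by 1.29 ± 0.31 (adjusted p = 0.0215). Arrdc3, an arrestin-like adaptor, fell by 1.46 ± 0.22 (adjusted p = 0.00181), with -0.74 in controls, -1.46 at 0.05% and -2.19 at 1%. The water channels Aqp8 and Aqp4 fell by 1.37 ± 0.21 and 1.16 ± 0.22, although the other Aqp4 probe sets differed by only -0.42 and -0.08. Defb1, a beta-defensin, fell by 1.17 ± 0.21 (adjusted p = 0.00492). Hectd2os fell by 1.65 ± 0.33 and Slc22a29, of the organic anion transporter family, by 1.36 ± 0.34, a call lost in 3 of 18 fits without 1 liver.

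**Figure D3:**
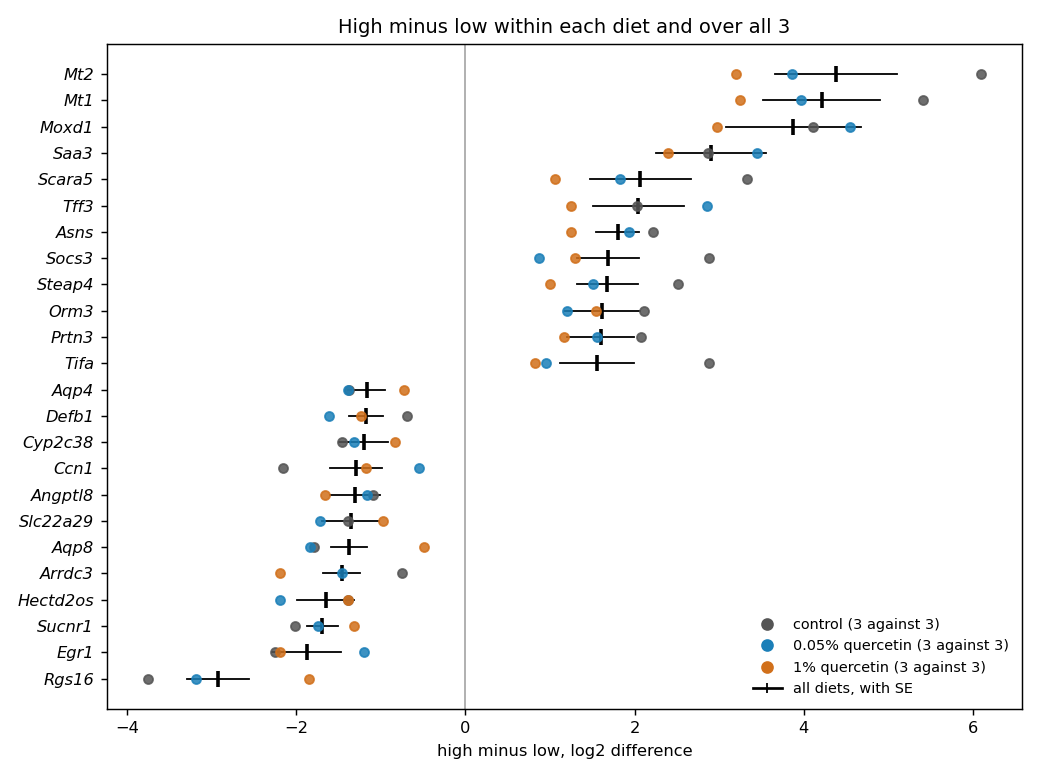
High minus low log2 difference of the 12 genes that rose furthest and the 12 that fell furthest, in each diet (coloured points, 3 against 3 livers) and over all diets with its standard error. The points of the 3 diets lie on the same side of 0 for each gene shown, and each gene was chosen by its difference over all diets. Rgs16 runs from -3.75 in controls to -1.84 at 1%.

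Bile acid genes had 7 of 21 members called, 6 lower and 1 higher, beside 6.65% of all tested genes, with a median of -0.22. Akr1d1, the steroid 5-beta-reductase of bile acid synthesis, had means of 9.95 ± 0.22 in the high livers and 10.62 ± 0.38 in the low livers (SD, n = 9 each), and fell by 0.67 ± 0.13 (limma adjusted p = 0.00855). Hsd3b7, an earlier enzyme of that route, fell by 0.46 ± 0.10, Slc10a1, the bile acid importer NTCP, by 0.33 ± 0.08, and Abcg8, a sterol exporter, by 0.40 ± 0.10. The Slc10a1 call was lost in 6 of 18 fits without 1 liver. Cyp7b1, which hydroxylates oxysterols and is more abundant in male mouse liver, rose by 0.68 ± 0.18 (adjusted p = 0.0356), a call lost in 9 of 18 fits without 1 liver. The number of members called lower ranged from 3 to 8 when 1 liver was left out, with 3 in each case without control replicate 3, 4 or 5 or without 0.05% replicate 2, 3 or 4. It was 2 with medians equalised over all probe sets, where 1% replicates 1 and 4 also changed sides.

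Cytochromes P450 and related drug-metabolising genes had 4 of 33 members called, 3 lower and 1 higher, beside 6.65% of all genes. Cyp2c55 had values of 5.61, 5.81 and 6.38 in the high livers, against 6.26, 6.72 and 7.07 in the low livers. It fell by 0.77 ± 0.10 (adjusted p = 0.000833). Cyp2c38 fell by 1.20 ± 0.29 (adjusted p = 0.0231) and Cyp3a25 by 0.27 ± 0.07 (adjusted p = 0.0412), while Cyp3a13 rose by 0.38 ± 0.08 (adjusted p = 0.0113). The Cyp2c38 call was lost without 0.05% replicate 2 and the Cyp3a25 call in 14 of 18 fits without 1 liver.

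Complement and coagulation genes had 3 of 31 members called, all higher, beside 3.16% of all tested genes, with a median of 0.13. Mbl1, a mannose-binding lectin, rose by 0.35 ± 0.08, Cfb, complement factor B, by 0.36 ± 0.09, and complement C2 by 0.50 ± 0.14, the last of which was lost in 12 of 18 fits without 1 liver and Cfb in 3. In that list 1 member was called without control replicate 3, 0.05% replicate 2 or 0.05% replicate 3. On values without equalised medians, 16 members were higher and 15 lower, with 0 called.

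Markers of other cell types were read beside these changes. In pieces of whole liver, more cells of a type and more RNA per cell cannot be told apart. Of the neutrophil list, 14 of 19 genes were on the array with a single symbol, 10 passed the filter and all 10 were higher, with a median of 0.37 and 4 called, all higher, beside 3.16% of all tested genes. The summed linear intensity of the list was 263 to 1726 with a median of 554 in the high livers, against 181 to 446 with a median of 340 in the low livers. The defining markers Camp, Ltf, Cxcr2 and Itgam were below the filter. S100a8 and S100a9, the calgranulins, rose by 1.47 ± 0.35 (adjusted p = 0.0201) and 1.37 ± 0.32 (adjusted p = 0.0184), and their differences by diet were 2.88, 0.43 and 1.11 for S100a8 in controls, at 0.05% and at 1%. Prtn3, a granule protease, rose by 1.60 ± 0.40 (adjusted p = 0.0256), a call lost in 5 of 18 fits without 1 liver, and Mmp8, neutrophil collagenase, by 0.52 ± 0.09 (adjusted p = 0.00419). The filter used the mean over all 18 livers, at 4.69. Prtn3 and Mmp8 had low means of 4.59 and 4.65 and passed it through their high livers, with means of 6.19 and 5.17. Their place among the 10 tested and the 4 called was thus set in part by the high side.

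Kupffer cell and macrophage markers were all higher, 19 of 19, with a median of 0.33, and 9 were called, beside 3.16% of all tested genes called higher. Their summed intensity was 8593 to 13560 with a median of 10495 in the high livers, against 7231 to 10144 with a median of 8208 in the low livers. Timd4, a receptor of resident Kupffer cells for dying cells, had values of 6.33, 6.65 and 6.99 in the high livers, against 5.99, 6.18 and 6.55 in the low livers, and rose by 0.48 ± 0.11 (adjusted p = 0.0137). Lyz2, a lysozyme, rose by 0.53 ± 0.12, the complement subunit C1qc by 0.43 ± 0.10 and the Fc receptor Fcgr3 by 0.36 ± 0.08. The number called ranged from 4 to 12 when 1 liver was left out, with 4 in each case without control replicate 3, 0.05% replicate 2, 3 or 4, or 1% replicate 2. It was 16 with the 2 highest against the 2 lowest livers of each diet, and was 0 on values without equalised medians, where 17 of 19 were still higher. The part of these cells in the changes of other lists was not tested. For neutrophil markers it was examined only by the covariate fit above, with the limits given there.

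In each list of other cell types 2 markers at most were called. Of all tested genes 6.65% were called either way, 3.16% higher and 3.49% lower. The MHC class II antigen presentation list had 1 of 7 members higher, 6 lower and 0 called. Its summed intensity had a median of 1321 in the high livers and 1522 in the low livers. Endothelial markers had 5 of 19 higher and 0 called, and hepatocyte markers had 10 of 12 higher, a median of 0.07 and 0 called. The stellate and matrix list had 2 of 19 called, Colec11 and Reln, which fell by 0.42 ± 0.10 and 0.31 ± 0.08, and the calls were lost in 1 and 4 of 18 fits without 1 liver. Of the lymphocyte list 11 genes passed the filter, Cd3e, Cd4, Cd8b1, Cd2, Cd79a and Ncr1 did not, and Gzmb, granzyme B, was called and rose by 0.66 ± 0.15 (adjusted p = 0.0146). Gzmb had a low mean of 4.44, below the filter at 4.69, and passed it through its high livers, with a mean of 5.10. The sums of both sides overlapped in each of these lists, as they did in the neutrophil and Kupffer cell lists.

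**Figure D4:**
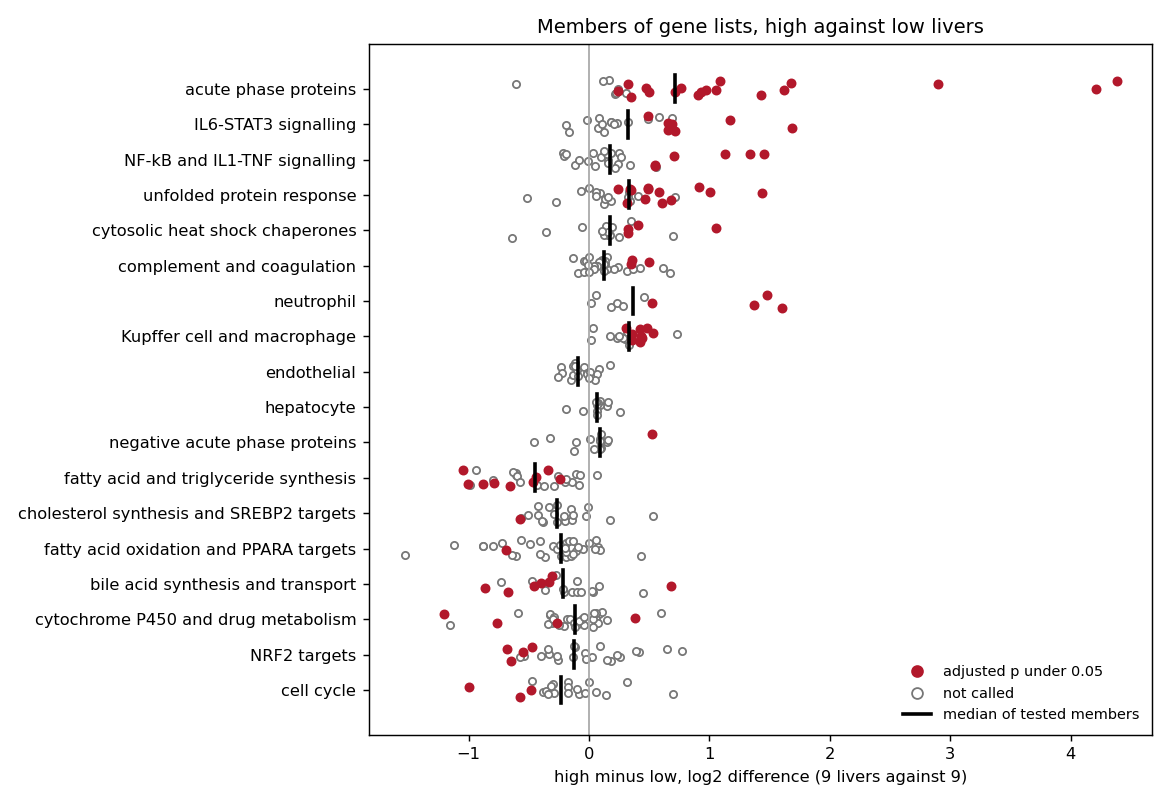
High minus low log2 difference of each tested member of 18 gene lists, with called members as filled points, uncalled members as open points and a bar at the list median. Acute phase proteins have a median of 0.72 with 18 called higher, and fatty acid and triglyceride synthesis has a median of -0.45 with 9 called lower.

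Whether the difference between high and low livers itself varied with diet was tested over the 6 combinations of diet and side. Of 12881 genes 21 (0.163%) passed at an adjusted p under 0.05 in limma, 1520 had an unadjusted p under 0.05, and none of the 21 was among the 856. The main fit counts variation of the difference between diets as spread, so that lack of overlap was in part set by the 2 tests. The count of 21 ranged from 2 to 59 when 1 liver was left out: 2 without control replicate 2 or control replicate 4, 59 without 1% replicate 1. Cish, an inhibitor of growth hormone and cytokine receptors, had the smallest p, with a difference of 2.35 in controls, -0.64 at 0.05% and -1.08 at 1% quercetin. That fit shares 1 estimate of spread over the diets. In it 255 genes were called within the control diet, 69 at 0.05% and 1 at 1%. Of the 856, 855 kept their sign in controls, 856 at 0.05% and 849 at 1%. The 856 were chosen by their difference over these same livers, so nothing is read from the kept signs. The counts of called genes cannot show that the response was smaller at 1%, since the scores of the 2 sides also lay closest together there. Their means were 11.81 ± 1.69 in the high livers and 9.62 ± 0.19 in the low livers (SD, n = 3 each).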

How the data were processed

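The submitters deposited linear intensity values, 1 probe set signal per Affymetrix array and mouse liver, made from biotin-labelled amplified RNA per the labels' protocols. Of the 45101 probe sets 34945 had 1 gene symbol, and the way signals were computed and scaled is not given in the sources used here. Values were log2(intensity + 16). Each gene was represented by its probe set with the highest mean, genes below the 40th percentile (a log2 value of 4.69) were left out, and array medians were equalised over the remaining genes.

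Differences were tested in limma 3.58.1 (R 4.3.3) with diet as a block and 14 residual degrees of freedom, two-sided, with Benjamini-Hochberg adjustment over all 12881 tested genes. A called gene had an adjusted p under 0.05. A fit of the 6 diet and side means tested the difference between diets, and array measures had exact permutation tests over 8000 arrangements within diet. The pipeline was tested on simulated data. Precision is limited by the number of arrays, and the median standard error was 0.101. P-values of the high against low comparison measure association with the split, judged against the spread between these mice. The cage of each mouse is unknown and was in no model.

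The split, the 36 gene lists and the naming rule were chosen with earlier results of these data known. The rule named the 12 largest rises and 12 largest falls among called genes, up to 4 members of each list with the smallest p, and all members of the acute phase and IL6-STAT3 lists. Genes named outside it are marked. Motifs were searched in promoter windows from RefSeq (GRCm38.p6). Alternatives were other normalizations, filters and splits, covariates, array weights and leaving out each liver. Same-numbered livers of different diets had correlations from -0.466 to 0.325, so numbers were not taken as pairs.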

Additional observations from a re-analysis of the deposited data

Results flagged for a closer look

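In the 9 livers of each side, the lowest or highest value of a gene was set against its nearest neighbour with Dixon's ratio at its usual critical value, for the 4 score genes and the 24 genes that rose or fell furthest. That value marks about 1 in 20 groups of independent, normally spread values, and 5 of 56 were marked. These groups share the same livers, and their genes made the split or were chosen by it. The 5 marks are therefore a description and cannot be set against that rate. 4 of the 5 concern the 0.05% replicate 1 liver, which has the lowest score of the high side. It had 6.27 for Mt2, with the nearest high liver at 11.2, and 7.18 for Mt1, with the nearest at 12.86. It also had 7.53 for Socs3, with the nearest at 9.55, and 9.08 for Steap4, with the nearest at 11.51. On the low side, 1% replicate 4 had 8.33 for Saa3, with the nearest low liver at 7.21. Without 0.05% replicate 1, 1171 genes were called, and the limma adjusted p of Mt2, Mt1, Saa3, Socs3 and Steap4 lay at or under 0.00319.

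The high minus low difference itself varied between diets for 4 further genes with the smallest p in that test. Cish had a limma adjusted p of 0.000867, with 2.35 in controls, -0.64 at 0.05% and -1.08 at 1%. Slc25a30, a mitochondrial carrier, had an adjusted p of 0.000867, with 2.93, -0.68 and -2.28 in that order. Ddit4, an inhibitor of mTORC1, had an adjusted p of 0.00978, with -1.12, 0.36 and 0.85. Snai2, a transcription factor, had an adjusted p of 0.0119, with -1.85, -0.15 and 0.48. Slc25a30, Ddit4 and Snai2 were named after their values were seen.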

How the results depend on the processing

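Of 856 called genes, the count was 883 after quantile normalization, 647 without equalised medians (14.8% of them higher, against 47.5% in the main fit), 381 with medians equalised over all probe sets (72.2% higher, with 1% replicates 1 and 4 changing sides), 550 with no filter, 1593 with the score as a continuous term, 1468 with array weights and 1583 at an adjusted p under 0.10. It was 0 with the neutrophil markers as a covariate, 0 with the Gapdh ratio as a covariate, 255 in the control diet alone, 69 at 0.05% alone and 1 at 1% alone. Splits by Saa1 and Saa2 or by Orm2 and Lcn2 alone moved 0 livers. Leaving out each liver gave 382 to 1171. The livers whose loss changed the count by more than 1.5 times are named in the report. The fit with replicate number as a block, beside diet, called 736 genes, 601 of them among the 856, and the 6 livers above the gap against the other 12 gave 1113. The count of genes that differed between diets, 21, was 90 without equalised medians, 39 with a trended and robust prior and 233 with array weights, and 2 to 59 when 1 liver was left out. The Gapdh ratio difference of 0.145 was 0.197 between the 2 highest and 2 lowest livers, and 0.130 to 0.166 without 1 liver. Of the named genes, S100a8 turned to -0.083 with the neutrophil covariate, which contains it, and in the 1% diet alone Gstm6 turned to 0.034 and Stat3 to -0.015; the cause of the last 2 was not tested. Over 194 named genes, of which 102 were called, calls were lost 686 times outside the leave-one-out fits and 306 times within them, and no called gene changed sign in the latter. Arrays give no depth, and dim genes are limited by the filter at a log2 value of 4.69.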

Other observations

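The counts of further gene groups are read beside 6.65% of all tested genes called either way and 3.49% called lower. In the cell cycle, NRF2 and urea cycle lists the share called lower was above 3.49%, on small counts that changed with single livers. Of 22 cell cycle genes 3 were called, all lower, with 18 lower in all and a median of -0.24. Cdc20, an activator of the anaphase-promoting complex, fell by 1.00 ± 0.26, Birc5, survivin, by 0.57 ± 0.14, and Ccna2, cyclin A2, by 0.49 ± 0.12. The other Cdc20 probe sets differed by only -0.60 and -0.008. None of the cell cycle genes was called without 0.05% replicate 2, or between the 2 highest and 2 lowest livers of each diet. NRF2 targets had 4 of 26 called, all lower, among them Gstm2, a glutathione transferase (-0.68 ± 0.15), and Nfe2l2, which encodes NRF2 itself (-0.47 ± 0.12, a call lost in 3 of 18 fits without 1 liver). Leaving out 1 liver gave 1 to 6 NRF2 targets called lower, with 1 in each case without control replicate 3 or 4 or 0.05% replicate 2, and 9 were called lower between the 2 highest and 2 lowest livers of each diet. The NRF2 list median of -0.12 turned to 0.08 with the neutrophil markers as a covariate, where 17 were higher and 9 lower. Urea cycle and amino acid breakdown had 3 of 19 called, all lower, with Hal, histidine ammonia-lyase, at -0.40 ± 0.10, and leaving out 1 liver gave 1 to 3.

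The share called was near or below that of all genes in the next lists. Interferon-induced genes had 2 of 29 called, Mx2, an antiviral GTPase, which rose by 0.59 ± 0.12, and Tap1, a peptide transporter, by 0.52 ± 0.15, a call lost in 13 of 18 fits without 1 liver. Mx2 had a low mean of 4.45, below the filter at 4.69, and passed it through its high livers, with a mean of 5.03. Cytosolic ribosomal proteins had 2 of 31 called, Rpsa and Rps25, which rose by 0.27 ± 0.06 and 0.30 ± 0.08, with the Rps25 call lost in 10 of 18 fits. The ribosomal list had 27 higher and 4 lower with a median of 0.06, but 4 higher, 27 lower, a median of -0.05 and 0 called on values without equalised medians. Oxidative phosphorylation had 1 of 44 called, Sdhd, which fell by 0.24 ± 0.06, a call lost in 4 of 18 fits. The oxidative phosphorylation list had 39 lower with a median of -0.08, but 34 higher, 10 lower and a median of 0.02 with the Gapdh ratio as a covariate. Igfbp3, a carrier of insulin-like growth factors, fell by 0.74 ± 0.12 (limma adjusted p = 0.00323) and was the 1 of 14 growth hormone and STAT5 genes called.

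Fatty acid oxidation and PPARA targets had 1 of 35 called, Aldh3a2, an aldehyde dehydrogenase, at -0.69 ± 0.20 (limma adjusted p = 0.0468), a call lost in 14 of 18 fits without 1 liver. The list had 30 lower and a median of -0.23, and its count of genes called lower was 0 to 8 when 1 liver was left out, with 8 without 0.05% replicate 1. It was 10 between the 2 highest and 2 lowest livers of each diet and 14 between the 6 livers above the gap and the other 12. Genes more abundant in female mouse liver had a median of -0.77 over 10 tested members with 0 called. Acot3, in both lists, had -1.53 ± 0.48 (limma adjusted p = 0.0621), with -1.52 in controls, -2.30 at 0.05% and -0.77 at 1%.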
